A study of Mus musculus with 2 samples.

Results

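The genes described here are Tmem68, Tgs1, Lyn, Plag1, Chchd7, Impad1, Fam110b, Ubxn2b, Car8 and Chd7, which flank the enkephalin precursor gene Penk on mouse chromosome 4. They were taken by symbol from the gene list of the count matrices as genes that start within 5 Mb of Penk, and are 10 of 19059 measured genes. A further 9 measured genes start in the same window and serve as their neighbours for comparison.

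Both groups were cervical dorsal root ganglia, the clusters of sensory neuron cell bodies beside the spinal cord, fixed in paraformaldehyde before dissociation. All mice carried Foxp3 CreER, a recombinase that tamoxifen switches on and that follows the expression of Foxp3, a gene of regulatory T cells. They were given tamoxifen and 3 days of imiquimod, a skin irritant. The control library, here Penk_ctrl, was Foxp3 CreER; Penk fl/WT, with 1 floxed and 1 wild-type copy of Penk, and the other, here Penk_KO, was Foxp3 CreER; Penk fl/fl, with both copies floxed. Each group was 1 pooled library. The sources used here do not state how many mice entered a pool, their age, sex or strain, or the strain in which the floxed allele was made; the series text calls the controls littermates.

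Penk encodes proenkephalin, from which the opioid peptides of the enkephalin family are cut, and in sensory ganglia such peptides are known for damping pain. The genes around it have no common function and share only their place on the chromosome. A gene targeted in embryonic stem cells and bred onto another strain generally keeps a stretch of chromosome from the strain of origin, so genes near the targeted allele are inherited with it. Homozygosity of the floxed allele, the stretch of chromosome around it and the loss of Penk went together in these groups, and their parts in any difference at the flanking genes cannot be told apart.

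The Penk_ctrl library held 15710 cell barcodes with 259136217 unique molecular identifiers (UMIs, counted probe molecules) and the Penk_KO library 12067 with 156441497. After filtering, 15690 and 12053 cells remained, of which 7105 and 5479 were neurons. Cells were clustered and the clusters named by marker genes as 10 neuron subtypes and 6 non-neuronal classes, each called "-like" because the name rests on markers alone. Generic neuron markers summed to 52.3% and 52.1% of their neuronal level in non-neuronal cells, so non-neuronal values include UMIs of neuron genes, and 4723 droplet barcodes occurred in both libraries. Penk itself had 582 UMIs in the Penk_ctrl library and 4 in the Penk_KO library. Neurons held 424 and 1 of these UMIs and non-neuronal cells 158 and 3, so the difference at Penk was present in both.

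In every comparison the UMIs of a gene were summed over the cells of a class and divided by all UMIs of that class, giving CPM, counts scaled to a total of 1000000 per class. The ratio is the Penk_KO level over the Penk_ctrl level, with an exact 95% interval for counting error only. Since a genotype is a single library, no difference has a replicate check and no p-value is given. "Past the size step" means a level at least 25% higher, or by the same factor (20%) lower, in a gene with at least 500 UMIs over both libraries. Each gene is read by its own probes, so levels were compared between classes and not between genes.

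By position the 10 genes form 2 head-to-head pairs and 6 single genes (all coordinates GRCm39, chromosome 4, GENCODE gene models). Tmem68 (ENSMUSG00000028232, 3549038 to 3575165, minus strand) and Tgs1 (ENSMUSG00000028233, 3574579 to 3618325, plus strand) start 0.57 Mb before Penk and overlap by 587 bases on opposite strands. Plag1 (ENSMUSG00000003282, 3900996 to 3938423, minus) and Chchd7 (ENSMUSG00000042198, 3938857 to 3951046, plus) form the other head-to-head pair, with starts 434 bases apart. Lyn (ENSMUSG00000042228, 3678061 to 3813122, plus) lies between the pairs. On the far side of Penk (ENSMUSG00000045573, 4132722 to 4141856, minus) follow Impad1, listed in GENCODE as Bpnt2 (ENSMUSG00000066324, 4744903 to 4793382, minus), Fam110b (ENSMUSG00000049119, 5644076 to 6108223, plus) and Ubxn2b (ENSMUSG00000028243, 6191007 to 6221688, plus). Car8 (ENSMUSG00000041261, 8141533 to 8239088, minus) and Chd7 (ENSMUSG00000041235, 8690406 to 8868738, plus) start farthest away, at 4.10 and 4.55 Mb. Where the probes bind within these genes is not stated in the sources used here, and neither is whether one lies in the stretch shared by Tmem68 and Tgs1.

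To show the start regions of a gene that differed and of one that did not, the 250 bases before the start of Car8, the gene with the lowest ratio in neurons, and of Fam110b, the gene with the ratio nearest 1, are printed 5′ to 3′ on the strand of the gene. The pair was chosen after the values were seen. Sequences are from the GRCm39 genome, chr4:8239089-8239338 for Car8 (minus strand) and chr4:5643826-5644075 for Fam110b (plus strand), before the GENCODE canonical transcript start. Capitals mark GGGCGG (the GC box) and CCAAT, searched on both strands together with TATAAA.
Car8: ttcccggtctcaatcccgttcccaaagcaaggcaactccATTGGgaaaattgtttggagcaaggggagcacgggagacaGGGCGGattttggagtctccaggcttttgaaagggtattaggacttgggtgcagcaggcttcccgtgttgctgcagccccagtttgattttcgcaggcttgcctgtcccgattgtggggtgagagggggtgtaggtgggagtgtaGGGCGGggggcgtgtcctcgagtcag
Fam110b: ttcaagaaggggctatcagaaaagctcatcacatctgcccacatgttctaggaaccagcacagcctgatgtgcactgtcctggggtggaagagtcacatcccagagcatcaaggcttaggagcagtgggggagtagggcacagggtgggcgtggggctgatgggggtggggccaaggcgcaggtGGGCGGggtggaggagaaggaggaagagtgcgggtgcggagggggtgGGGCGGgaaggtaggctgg
Both windows held 2 copies of GGGCGG, a motif found in 38.7% of 19043 such windows, and the Car8 window also held 1 CCAAT, found in 35.9%. Neither held TATAAA, found in 11.1%. The Car8 window had 10 CpG dinucleotides and the Fam110b window 6, against a median of 8 over all windows. No annotated exon lies in either window.

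Across all neurons, Tmem68 and Lyn were higher and Car8 and Chd7 lower in the Penk_KO library, 4 of 10 genes past the size step. Over all 12145 genes with enough UMIs in neurons the share past it was 5.03%, with 1.44% higher and 3.59% lower. The median log2 ratio of the 10 genes was -0.02, against -0.01 for all genes, with members on both sides. Over all cells, 2 were higher (Tmem68 and Lyn) and 1 lower (Car8), with 3.61% of all genes past the step. In neurons with droplet barcodes found in 1 library only, the ratios were 1.51 for Tmem68, 1.44 for Lyn, 0.363 for Car8 and 0.760 for Chd7, all past the step as well. None of the 4 neighbours with enough UMIs in neurons passed it. These were Sdcbp (ratio 1.04), Nsmaf (1.03), Rab2a (0.995) and Tox (0.887, 0.805 to 0.976). The neighbours meet the same distance rule as the 10 genes, which were chosen with earlier results of these data known. The contrast between the lists is therefore not independent of that choice. Of the rest of the window, Mos had 29 and 11 UMIs over all cells, Cyp7a1 2 and 4, and Vmn1r2, Sdr16c5 and Sdr16c6 had 0 in both libraries.

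By distance on chromosome 4, 4 of 14 genes (28.6%) within 5 Mb of Penk were past the step in neurons. This compares with 0 of 17 from 5 to 10 Mb, 2 of 24 (8.33%) from 10 to 20 Mb, 2 of 81 (2.47%) from 20 to 40 Mb and 4.99% of 621 farther off. On the other chromosomes the share was 5.03%. The median size of the log2 ratio, whatever its sign, was 0.12 within 5 Mb and 0.07 on the other chromosomes. The 2 genes higher in the Penk_KO library lay at lower coordinates than Penk and the 2 lower genes at higher coordinates. In non-neuronal cells 1 of 12 genes within 5 Mb, Lyn, was past the step (8.33%), against a share of 2.66% over all 10850 genes there.

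**Figure D1:**
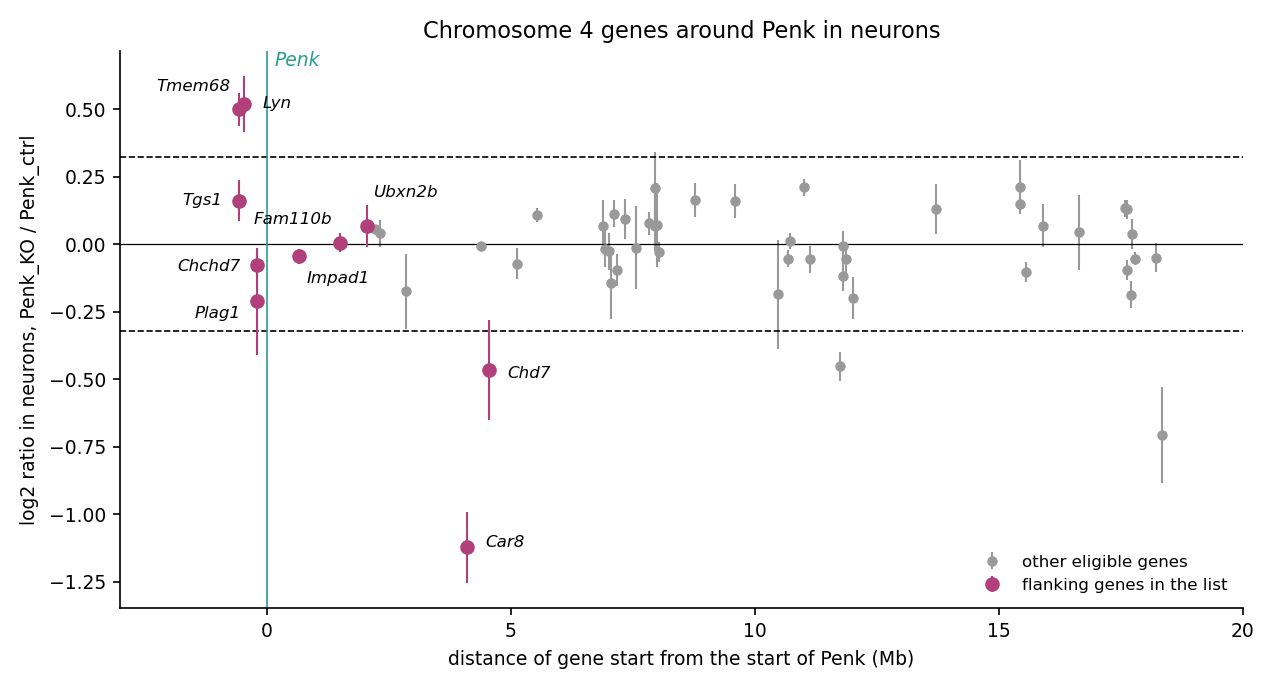
Log2 ratio (Penk_KO over Penk_ctrl) of chromosome 4 genes in neurons against the distance of their start from that of Penk in Mb, up to 20 Mb. Bars are exact 95% counting intervals and dashed lines the size step. Tmem68 and Lyn sit above the upper line, Chd7 and Car8 below the lower line, and no gene between 5 and 10 Mb lies outside the lines.

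Seen class by class, 58 pairs of a gene and a class had enough UMIs and 10 of them (17.2%) were past the step, 8 higher and 2 lower. Over all 86425 such pairs of any gene the share was 3.07%. None of the neighbours with enough UMIs was past the step in any class. The flanking genes were chosen with earlier results of these data known, so the 17.2% is not independent of that choice. The 10 pairs came from 3 genes: 7 from Tmem68, 1 from Lyn and 2 from Car8. Chchd7, Impad1, Fam110b and Ubxn2b, gave 38 of the pairs and none past the step. Only 8 of 7673 genes with enough UMIs in at least 5 classes (0.104%) were past the step on one side in each of them, and none was a flanking gene. These were Nav2 and Snapc1, higher, and Cc2d1b, Tmem267, Egr1, Rtl8b, Hr and Junb, lower. Of these only Cc2d1b is on chromosome 4, 104 Mb from Penk.

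**Figure D2:**
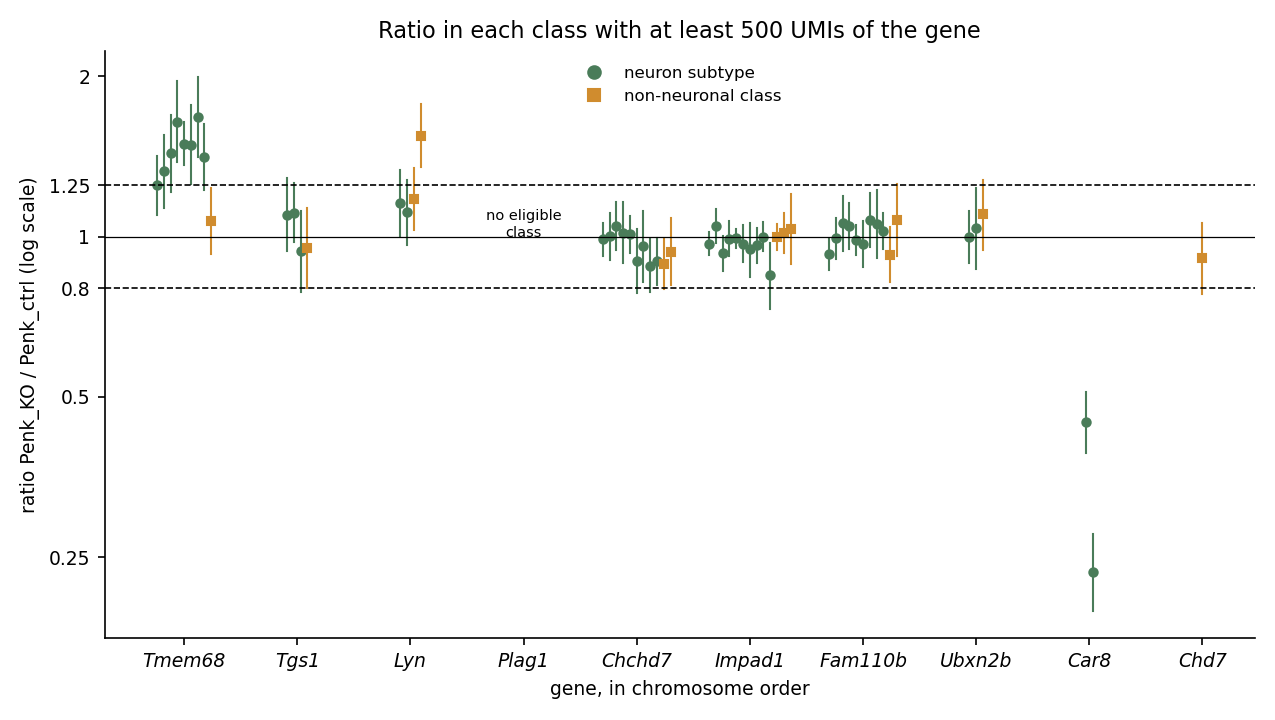
Ratio of Penk_KO to Penk_ctrl (log axis) for each gene in each class in which it had at least 500 UMIs, with exact 95% counting intervals. Circles are neuron subtypes and squares non-neuronal classes. Tmem68 lies above 1 in all 9 of its classes and Car8 below 0.5 in both of its classes, while Chchd7, Impad1, Fam110b and Ubxn2b stay between the dashed lines of the size step.

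Tmem68 encodes a membrane acyltransferase of lipid synthesis. In neurons it had 4967 UMIs or 22.2 CPM in the Penk_ctrl library and 4138 or 31.4 CPM in the Penk_KO library, a ratio of 1.41 (1.36 to 1.47). The difference ran through the neuron subtypes. All 8 with enough UMIs had a ratio above 1, from 1.249 (1.10 to 1.42) in proprioceptor-like neurons, just inside the step, to 1.68 (1.41 to 1.99) in peptidergic C-like neurons. Proprioceptors report muscle stretch, and peptidergic C neurons are slow nociceptors that carry neuropeptides. In the peptidergic C-like neurons, where 2.02% of all genes passed the step, Tmem68 had 228 UMIs (20.7 CPM) and 333 UMIs (34.7 CPM).

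The other 6 subtypes lay between these. C-LTMR-like neurons, unmyelinated low-threshold touch neurons, had a ratio of 1.64 (1.38 to 1.96), with 1.29% of all genes past the step there. Mrgprd nonpeptidergic-like neurons, nociceptors of the skin, had 1.49 (1.36 to 1.64) from 923 and 903 UMIs, against 2.42% of genes. Mrgpra3 pruriceptor-like neurons, which sense itch, had 1.49 (1.254 to 1.77), against 2.69%. All of these ratios were higher than that of proprioceptor-like neurons, though their intervals overlap. A-delta LTMR-like neurons, of hair follicles, had 1.44 (1.22 to 1.69), in a subtype in which 9.81% of all genes were past the step. Peptidergic A-fibre-like neurons had 1.41 (1.22 to 1.63), against 4.5%, and A-beta LTMR-like neurons 1.33 (1.13 to 1.55), against 1.56%. The largest cluster of peptidergic A-fibre-like cells was a different one in each library. Within the 2 larger clusters of this subtype the ratio was 1.49 (1.19 to 1.84) and 1.43 (1.07 to 1.91). As the mean of each cell's own CPM, which gives cells of low depth equal weight, 3 of the 7 subtypes past the step were inside it, with ratios of 1.18 in peptidergic C-like, 1.17 in Mrgpra3 pruriceptor-like and 1.20 in A-beta LTMR-like neurons. C-LTMR-like neurons were then highest, at 2.42, so the order of the subtypes depended on the summing. Over the finer neuron clusters with at least 100 UMIs of Tmem68, the ratio was above 1 in 24 of 24, from 1.07 to 1.76.

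Outside neurons Tmem68 was close to equal in the libraries. It had 895 UMIs (25.4 CPM) and 665 UMIs (27.2 CPM) in all non-neuronal cells, a ratio of 1.07 (0.966 to 1.18). Satellite glia-like cells, the glia that wrap the neuron cell bodies, had 485 and 333 UMIs, at 1.07 (0.928 to 1.23). In fibroblast-like, endothelial-like and macrophage-like cells the ratio was below 1 on at most 74 UMIs a library, with intervals that include 1. Over the non-neuronal clusters with at least 100 UMIs of Tmem68, the ratio was above 1 in 2 of 3, from 0.854 to 1.253. The neuronal and the non-neuronal interval do not overlap, but that difference itself was not tested. Across classes the level itself was even, and no neighbours in the order of the 16 classes were separated in both libraries.

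Tgs1, which shares its start region with Tmem68, encodes the enzyme that adds methyl groups to the cap of small nuclear RNAs. It had 3558 UMIs (15.9 CPM) and 2344 UMIs (17.8 CPM) in neurons, a ratio of 1.12 (1.06 to 1.18) inside the step. In its 4 classes with enough UMIs the ratio lay between 0.939 and 1.11. The interval of Tgs1 in neurons lies below that of Tmem68, so the ratios of the head-to-head partners differed by more than counting error. The other pair gave smaller values. Plag1, a zinc finger transcription factor, had 622 and 317 UMIs in neurons, a ratio of 0.865 (0.753 to 0.992), and no single class with 500 UMIs. Chchd7, a small protein of the mitochondrial intermembrane space, had 13282 and 7423 UMIs, a ratio of 0.948 (0.922 to 0.976), with 0.882 to 1.05 over 11 classes.

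Lyn encodes a Src-family tyrosine kinase best known from myeloid cells and B cells. Its level differed widely between classes. Macrophage-like cells led with 383 UMIs (429 CPM, 387 to 474) in the Penk_ctrl library and 477 UMIs (663 CPM, 605 to 725) in the Penk_KO library, separated in both from the next class. Sst/Nppb pruriceptor-like neurons, itch neurons with the peptides somatostatin and natriuretic polypeptide b, followed at 68.9 and 79.6 CPM, and endothelial-like cells, not separated from them, stood at 64.2 and 72.5. Peptidergic C-like neurons were next at 37.9 and 42.1 and were separated from endothelial-like cells in both libraries. In A-beta LTMR-like neurons, the lowest class, Lyn stood at 0.879 and 1.16 CPM from 14 and 10 UMIs. The genes whose levels ran most like those of Lyn over the 16 classes in both libraries were Lst1 (Pearson's r = 0.921), Rap1b (0.903) and Mcm6 (0.891), over 32 points that share libraries and depth.

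In macrophage-like cells the ratio of Lyn was 1.55 (1.35 to 1.77), past a step that 11.5% of the 427 genes with enough UMIs there also passed. The 6 macrophage markers used for the name had ratios between 0.990 and 1.06 in the same cells, with a median of 1.03. None of these markers came near the step, but the class was named by them, so they cannot show that the cells were otherwise alike. Lyn is the only flanking gene with 500 UMIs in that class. Myelinating Schwann-like cells pointed the same way on fewer counts, with 145 and 165 UMIs, at 1.54 (1.22 to 1.94), and satellite glia-like cells were at 1.18 (1.03 to 1.35). The summed macrophage markers were also higher in the Penk_KO library in myelinating Schwann-like cells, at 290 and 391 CPM. In satellite glia-like cells they were closer, at 375 and 384 CPM. The part of macrophage RNA in these ratios of Lyn was not tested.

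In neurons as a whole Lyn had 1668 UMIs (7.45 CPM) and 1409 UMIs (10.7 CPM), a ratio of 1.43 (1.33 to 1.54). The subtypes rich in Lyn made up more of the neuronal UMIs in the Penk_KO library. Peptidergic C-like neurons gave 4.92% and 7.28% of them and Sst/Nppb pruriceptor-like neurons 2.57% and 3.64%. Within these subtypes the ratio was 1.11 (0.967 to 1.28) and 1.16 (1.00 to 1.33), inside the step. As the mean of each cell's own CPM it was on the other side of 1 in both, at 0.782, past the step, and 0.955. With the 10 subtypes weighted equally the neuronal ratio was 1.10, also inside it. In 2 neuron clusters left without a name the ratio was larger, 1.80 (1.39 to 2.32) in one led by Htr3a and 1.65 (1.29 to 2.11) in one led by Pvalb and Apoe. The summed macrophage markers were even over all neurons, at 34.4 and 34.2 CPM, but higher in the Penk_KO library in Sst/Nppb pruriceptor-like neurons (28.5 and 45.9 CPM, 5 of 6 markers) and peptidergic C-like neurons (26.9 and 35.5 CPM, 4 of 6). Their part in the values of Lyn was not tested.

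Impad1, a Golgi phosphatase of the sulfation pathway, Fam110b, a centrosome-associated protein, and Ubxn2b, a cofactor of the p97 ATPase, follow Penk on its far side and were close to equal. In neurons Impad1 had 31543 and 18019 UMIs, a ratio of 0.969 (0.952 to 0.987), and Fam110b 16688 and 9872 UMIs, a ratio of 1.00 (0.979 to 1.03). Ubxn2b had 3491 and 2155 UMIs and a ratio of 1.05 (0.992 to 1.11). Over their classes the ratios ran from 0.846 to 1.05 for Impad1 (13 classes), 0.925 to 1.08 for Fam110b (11) and 1.00 to 1.10 for Ubxn2b (3). At these depths a difference of the size seen for Tmem68 would lie outside the neuronal interval of each.

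Fam110b had a pattern among subtypes all the same. It stood at 106 and 114 CPM in Sst/Nppb pruriceptor-like neurons, separated in both libraries from A-beta LTMR-like neurons (91.4 and 90.7), the next neuron subtype. It was lowest in Trpm8 cold-like neurons, which sense cooling, at 33.4 and 30.3 CPM, and in peptidergic C-like neurons at 35.7 and 37.7. Mural-like cells ranked above all neuron subtypes, on 21 and 19 UMIs. Ubxn2b, by contrast, was lowest in proprioceptor-like neurons (259 and 183 UMIs) and next lowest in A-beta LTMR-like neurons (192 and 87), with no neighbours in its order separated. The patterns most like these were of Ube2e2 (r = 0.789), Daam1 (0.758) and Wdr73 (0.737) for Fam110b and of Uba2 (0.810), Hist3h2a (0.789) and Npat (0.786) for Ubxn2b. For Plag1 they were Pcmtd2 (0.714), Zfp775 (0.698) and Dus3l (0.693).

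Car8 encodes a carbonic anhydrase-related protein that lacks the enzyme activity and binds the inositol trisphosphate receptor, the calcium release channel of the endoplasmic reticulum. It is known in dorsal root ganglia as a gene that bears on pain sensitivity. Most Car8 lay in 3 neuron subtypes, and it was lower in the Penk_KO library in each of them. Over all neurons it had 2259 UMIs (10.1 CPM) in the Penk_ctrl library and 612 UMIs (4.64 CPM) in the Penk_KO library, a ratio of 0.460 (0.420 to 0.503).

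Mrgpra3 pruriceptor-like neurons held 837 UMIs (81.5 CPM, 76.1 to 87.2) and 310 UMIs (36.5 CPM, 32.6 to 40.8), a ratio of 0.448 (0.392 to 0.511). Peptidergic C-like neurons held 841 UMIs (76.3 CPM, 71.3 to 81.7) and 172 UMIs (17.9 CPM, 15.3 to 20.8), a ratio of 0.235 (0.198 to 0.277). Sst/Nppb pruriceptor-like neurons, below the limit of 500 UMIs, held 263 (45.6 CPM) and 56 (11.6 CPM), at 0.255 (0.188 to 0.341). The ratio in Mrgpra3 pruriceptor-like neurons was 0.279 in droplets found in 1 library and 0.630 as the mean of each cell's own CPM. These 3 subtypes gave 37.1%, 37.2% and 11.6% of neuronal Car8 UMIs in the Penk_ctrl library, and in none of them do the intervals of the libraries overlap. Mrgpra3 pruriceptor-like and peptidergic C-like neurons were not separated from each other in both libraries, and Sst/Nppb pruriceptor-like neurons were separated from the next class, satellite glia-like cells at 8.35 and 1.49 CPM. The genes most like Car8 over classes were Agrp (r = 0.801), T2 (0.799) and Slc10a6 (0.798).

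The markers that define these subtypes lay nearer 1 or above it. Those of peptidergic C-like neurons had a median ratio of 0.978 (0.861 to 1.07 over 5 markers), those of Sst/Nppb pruriceptor-like neurons 1.09 (1.04 to 1.12 over 7) and those of Mrgpra3 pruriceptor-like neurons 1.24 (1.01 to 1.33 over 4). Among the latter, Mrgprb4 (1.28) and Mrgprb5 (1.33) were past the step, and Mrgpra3 (1.20) and Mrgprx1 (1.01) were inside it. The clusters were named by these markers, so the marker ratios cannot show that the subtypes were otherwise alike. Of all genes with enough UMIs, 2.02% were past the step in peptidergic C-like neurons and 2.69% in Mrgpra3 pruriceptor-like neurons. The shares of neuronal UMIs given by Mrgpra3 pruriceptor-like (4.58% and 6.43%) and peptidergic C-like neurons were larger in the Penk_KO library. With subtypes weighted equally the neuronal ratio of Car8 was further from 1, at 0.324.

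**Figure D3:**
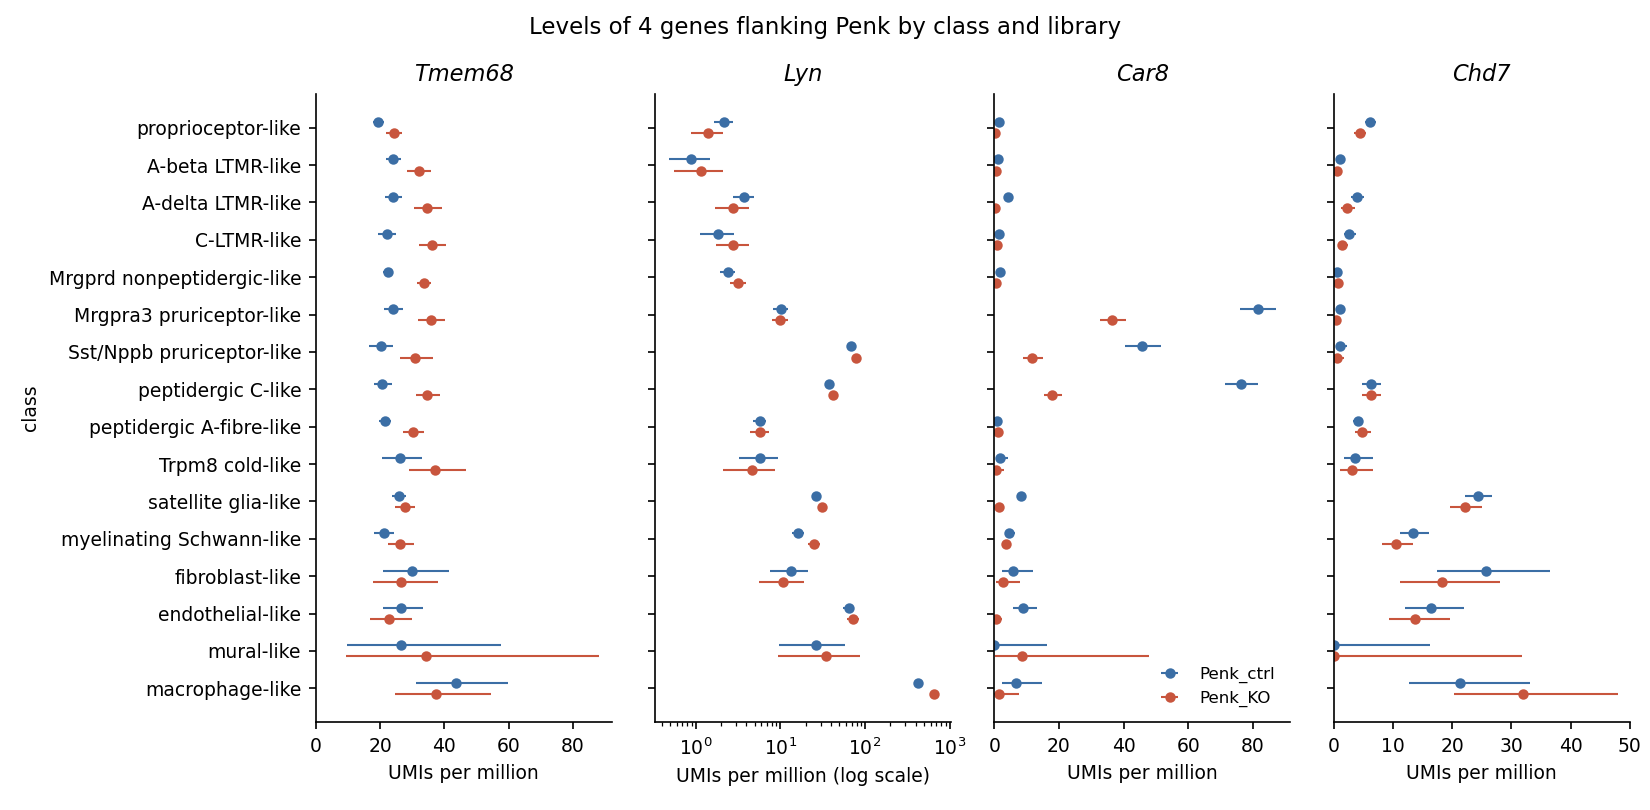
CPM of Tmem68, Lyn, Car8 and Chd7 in each class, with exact Poisson 95% intervals, for the Penk_ctrl and the Penk_KO library (Lyn on a log axis). Tmem68 is at similar levels in all classes with the Penk_KO points to the right in neuron subtypes, Lyn peaks in macrophage-like cells at 429 and 663, and Car8 is highest in 3 neuron subtypes in which the Penk_KO points lie to the left.

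Finer clusters split these subtypes further. The peptidergic C-like cluster led by Gpx3, Adcyap1 and Npy1r held 463 and 78 UMIs of Car8, a ratio of 0.201 (0.156 to 0.256). The one led by Gfra3, Gpx3 and Calca held 272 and 69, at 0.259 (0.196 to 0.338), and the one led by Gpx3, Gfra3 and Gal 76 and 19, at 0.391 (0.223 to 0.652). Among Mrgpra3 pruriceptor-like neurons, nearly all Car8 lay in the cluster led by Mrgprx1 and Crip1, with 795 and 307 UMIs. There the ratio was 0.557 (0.486 to 0.636), nearer 1 than the 0.448 of the subtype as a whole. The part of the mix of clusters in the ratio of the subtype was not tested. The interval of the Mrgprx1-led cluster does not overlap that of the first peptidergic C-like cluster. The Mrgprb4-led cluster, neurons of the kind that respond to stroking of the skin, held 42 UMIs and 3. The main Sst/Nppb pruriceptor-like cluster held 249 and 52, at 0.253 (0.184 to 0.342).

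**Figure D4:**
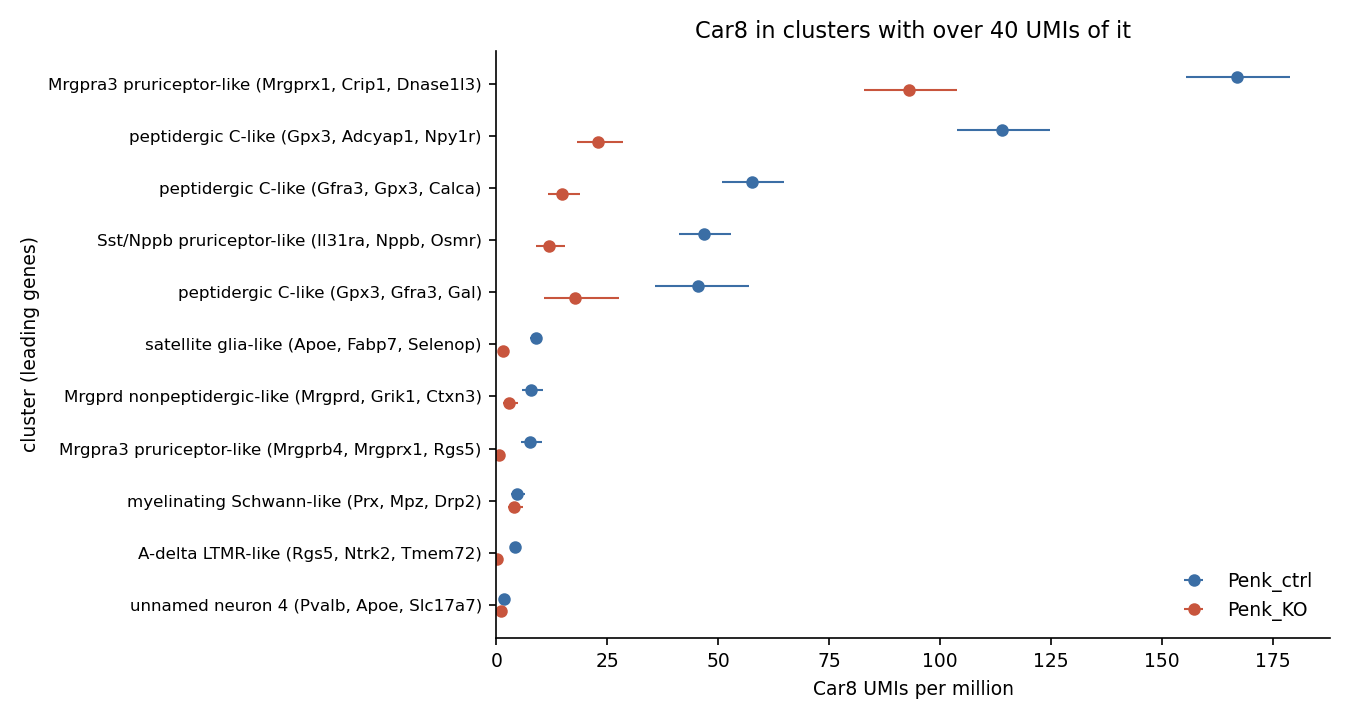
Car8 CPM in each cluster with more than 40 UMIs of it, with exact Poisson 95% intervals, for both libraries; clusters are labelled by class and leading genes. In the cluster led by Mrgprx1 the level was 167 in Penk_ctrl and 92.9 in Penk_KO, and in the peptidergic C-like cluster led by Gpx3, Adcyap1 and Npy1r 114 and 22.9.

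Several classes with little Car8 had lower levels in the Penk_KO library too. Non-neuronal cells had 246 UMIs (6.99 CPM) and 48 UMIs (1.96 CPM), at 0.281 (0.202 to 0.384), and satellite glia-like cells 157 and 18. Mrgprd nonpeptidergic-like neurons had 71 and 16, at 0.344 (0.187 to 0.598). Proprioceptor-like neurons gave 1.73% of neuronal Car8 UMIs in the Penk_ctrl library and 0.654% in the Penk_KO library. Their shares of all neuronal UMIs were 13.5% and 12.4%. A-delta LTMR-like neurons had 61 UMIs and 1, and in these the summed satellite glia markers were also lower, at 519 and 261 CPM. The part of RNA from other cells in these counts was not tested. In A-beta LTMR-like, C-LTMR-like and Trpm8 cold-like neurons and in Schwann-like, fibroblast-like and macrophage-like cells the intervals include 1. Peptidergic A-fibre-like neurons had 18 and 11 UMIs and a ratio above 1, at 1.27 (0.543 to 2.85).

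Chd7 encodes a chromatin remodelling ATPase. Its level was highest in non-neuronal classes, with 24.4 and 22.2 CPM in satellite glia-like cells. Macrophage-like cells stood at 21.3 and 32.0 CPM and fibroblast-like cells at 25.7 and 18.2, each on fewer than 500 UMIs. By count, neurons held 810 of the 1516 Chd7 UMIs in the Penk_ctrl library and 346 of 772 in the Penk_KO library. In satellite glia-like cells, the only class with enough UMIs, it had 458 and 268 UMIs and a ratio of 0.912 (0.782 to 1.06). It was past the step as the mean of each cell's own CPM (0.764) and with cells thinned to 500 UMIs (0.696, from 40 and 21 UMIs). In neurons it had 810 UMIs (3.62 CPM) and 346 UMIs (2.62 CPM), a ratio of 0.725 (0.637 to 0.823). All 5 satellite glia markers were lower in the neurons of the Penk_KO library as well, summing to 367 and 300 CPM, a ratio of 0.817. The part of glial RNA in the difference of Chd7 was not tested.

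The call of Chd7 in neurons depended on how neurons were summed. Of its neuronal UMIs, 257 and 69 lay in the unnamed cluster led by Pvalb and Apoe, at a ratio of 0.713 (0.538 to 0.933). In proprioceptor-like neurons, whose summed satellite glia markers were even (152 and 157 CPM), Chd7 had 187 and 72 UMIs and a ratio of 0.707 (0.531 to 0.933). Peptidergic C-like neurons held 69 and 60 UMIs of it, at 0.997 (0.694 to 1.43). With the named subtypes weighted equally the ratio was 0.805, and as the mean over single cells it was 0.941, both inside the step. The genes most like Chd7 in level over the classes were Ddx39 (r = 0.889), Zfp809 (0.883) and Casp4 (0.875).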

How the data were processed

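Per the labels' protocols, the authors fixed the cervical spine, dissected the ganglia, dissociated them and used the Chromium fixed RNA profiling kit, in which pairs of probes read each gene. The authors deposited unnormalised UMI counts for every gene in every barcode, made with Cell Ranger on GRCm39, version 7.0 per the labels' protocols and 8.0.1 per the file headers. Seurat is named without a role in the submitters' processing notes.

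The filter was 500 UMIs and 300 genes a barcode. No doublet caller was run, so all such cells were kept, doublets included; an alternative uses droplet barcodes found in 1 library. Counts were scaled to 10000, log transformed and reduced to 40 principal components of 3000 variable genes, leaving out genes within 5 Mb of Penk. Clusters came from Leiden partitioning (resolution 1.0, 15 neighbours), again within neurons. A name needed at least 50 cells, a marker score of 1.0 and 3 markers, with limits set after the clusters were seen. Neurons without a name (1124 and 907 cells) stayed among all neurons; clusters that carried neuron markers were counted as neurons by a rule also set after viewing. Software was igraph 0.11.9 and scikit-learn 1.9.0 for clustering and scipy 1.17.1 for intervals, under Python 3.11.15.

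UMIs were summed per library and class. Levels have exact Poisson 95% intervals and ratios exact conditional binomial intervals. They take every UMI as independent and leave out the spread between cells, animals and preparations. Patterns across classes were compared by Pearson's r of log2(CPM + 1) for genes whose class means span at least 4-fold, and the 3 most alike were named. Named are also the window's measured genes and genes past the step in every class. The interval was tested on simulated counts. The 10 genes and all lists were chosen with earlier results of these data known. Gene positions came from GENCODE vM39, with 19043 of 19059 genes matched.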

Additional observations from a re-analysis of the deposited data

How the results depend on the processing

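No paired analysis was possible because each genotype is 1 library, and for the same reason no replicate could be left out. Depth limits Plag1, which has 500 UMIs in no single class, and the mural-like and fibroblast-like cells, in which none of the 10 genes has them. The neuronal ratio of Tmem68 ranged from 1.32 to 1.51 over the alternatives and that of Car8 from 0.324 to 0.587, and Lyn in macrophage-like cells from 1.44 to 1.77, with no call changed at the step of 25%. Lyn in neurons ranged from 1.10 to 1.44 and was inside the step as a mean of each cell's own level (1.18) and with subtypes weighted equally. Chd7 in neurons ranged from 0.724 to 0.941 and was also inside it with cells thinned to 500 UMIs (0.865) and at Leiden resolution 1.5 (0.805).

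The median ratio of the 10 genes in neurons was 0.986. It was 0.903 with thinned cells, 0.991 for droplets found in 1 library, 0.976 with subtypes weighted equally and 0.980 for named subtypes only, an alternative chosen after seeing the data. As the mean of single cells, 2 of the 10 genes were past the step in neurons and 2 within 5 Mb, against 5.37% of all genes. There were then 17 of 58 pairs of gene and class in place of 10, against 14.6% of the pairs of all genes in place of 3.07%, and 3 genes alike in all classes in place of 8. Thinned cells gave 33 pairs, against 44.5% of all pairs, and 21.4% of all genes passed the step in neurons. In them Tmem68 reversed in Mrgpra3 pruriceptor-like neurons (0.158, from 8 and 1 UMIs) and in peptidergic C-like neurons (0.884, from 11 and 9), and Penk had a ratio of 0. Thinned Car8 was at 0.876 in Mrgpra3 (13 and 9 UMIs) and 0.738 in Sst/Nppb pruriceptor-like neurons (5 and 3), and thinned Lyn at 0.540 in peptidergic C-like (16 and 8) and 1.54 in Sst/Nppb pruriceptor-like neurons (8 and 10). Thinned Tmem68 was at 1.21 in A-beta LTMR-like neurons (5 and 5), inside the step, 2.93 in A-delta LTMR-like (3 and 5), 0.581 in Trpm8 cold-like neurons (4 and 2) and 0.682 in satellite glia-like cells (35 and 18). A step of 50% in place of 25% left 1 of the 10 genes against 0.576% of all genes. It left 1 gene within 5 Mb and 1 alike in all classes. A step of 15% gave 5 of the 10 genes in neurons against 13.3% of all genes, and 16 alike. With 2000 UMIs required, 2 were alike. Within 2.5 Mb of Penk, which leaves out Car8 and Chd7, 2 of 10 genes were past the step in neurons, against 5.03% of all genes. The cause of these shifts was not tested.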
